A study of Mus musculus with 4 samples.

Results

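Dentate gyrus granule neurons, column Glutamatergic_DG of the deposited cell type tables and called DG here, were found in 199 of 14809 spots over 4 sagittal mouse brain sections. A spot is a small barcoded area of the slide that can cover several cells, and it was counted as a DG spot when its deposited DG share was above 0. Granule neurons form the densely packed cell layer of the dentate gyrus, the entry station of the hippocampus. They receive input from the entorhinal cortex and send mossy fibres to CA3 pyramidal neurons, and new granule neurons continue to be added in the adult rodent.

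Each of the 4 groups was represented by 1 section of wild type C57 brain. In the groups subjected to chronic social defeat stress, a social interaction test separated susceptible mice from resilient ones. The groups were ketamine-treated susceptible (ketamine injected intraperitoneally at 10 mg/kg, 3477 spots), susceptible (saline, 3443 spots), resilient (saline, 4156 spots) and control (saline, 3733 spots). Brains were taken 7 days after ketamine. The labels used here give neither age nor sex, nor how many mice stand behind a section. With 1 section a group, differences between sections have no replicate check and no test.

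For every spot the tables hold 67 fractions, 1 per cell type, as assigned by the authors. The smallest share that was not 0 was 10.1%, so a type listed at 0 may have been present below that level. Gene counts, positions and sequencing depth were not analysed here, and the defining genes of granule neurons could not be checked. The label was set instead against the other hippocampal types and the authors' spot clusters. Fewer granule neurons in a spot and less RNA from each of them cannot be told apart in these shares.

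The sections shared many spot barcodes, between 2735 and 3304 for a pair of sections. For the ketamine-treated and susceptible sections, 3304 barcodes were in both, and 53.2% of these carried the same cluster number in both sections. The same figure was 25.8% for the resilient and control sections and between 1.10% and 2.56% for the other pairs. DG was held by 20 barcodes in both the ketamine-treated and the susceptible section, and by 0 in both sections of any other pair. No spot with more than 1 type had identical shares under the same barcode in a pair of sections. Whether a barcode marks the same place on every slide is not given in the sources used here.

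DG covered a small part of every section. It was present in 33 of 3477 ketamine-treated spots (0.949%, 95% interval 0.654 to 1.33) and in 50 of 3443 susceptible spots (1.45%, 1.08 to 1.91). It was present in 65 of 4156 resilient spots (1.56%, 1.21 to 1.99) and in 51 of 3733 control spots (1.37%, 1.02 to 1.79). All intervals here are exact Clopper-Pearson intervals and cover counting error only, since neighbouring spots are not independent. The ketamine-treated section was lowest and the resilient section highest by this count, and the intervals of every pair of sections overlapped.

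The mean DG share over all spots was 0.696% in the ketamine-treated, 1.08% in the susceptible, 1.10% in the resilient and 1.02% in the control section. The ketamine-treated section had 0.642 times the susceptible share, 0.632 times the resilient share and 0.682 times the control share. The susceptible section had 0.984 times the resilient share and 1.06 times the control share, and the resilient section had 1.08 times the control share. A difference of 1.5-fold was taken as a mark of size, and the types with a mean share of 0.5% or more in one of the compared sections served as background. The ketamine-treated section was past it on the lower side against the susceptible section, as were 9.68% of 31 types, DG included. It was also past it on the lower side against the resilient section, as were 10.7% of 28 types. In either direction 19.4% and 32.1% of types were past it in these comparisons. DG was not past it in the other comparisons, in which 28.6% of types (ketamine-treated against control), 41.4% (susceptible against resilient), 36.7% (susceptible against control) and 39.3% (resilient against control) were past it in either direction. The 6 comparisons share sections and are not independent of each other.

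**Figure D1:**
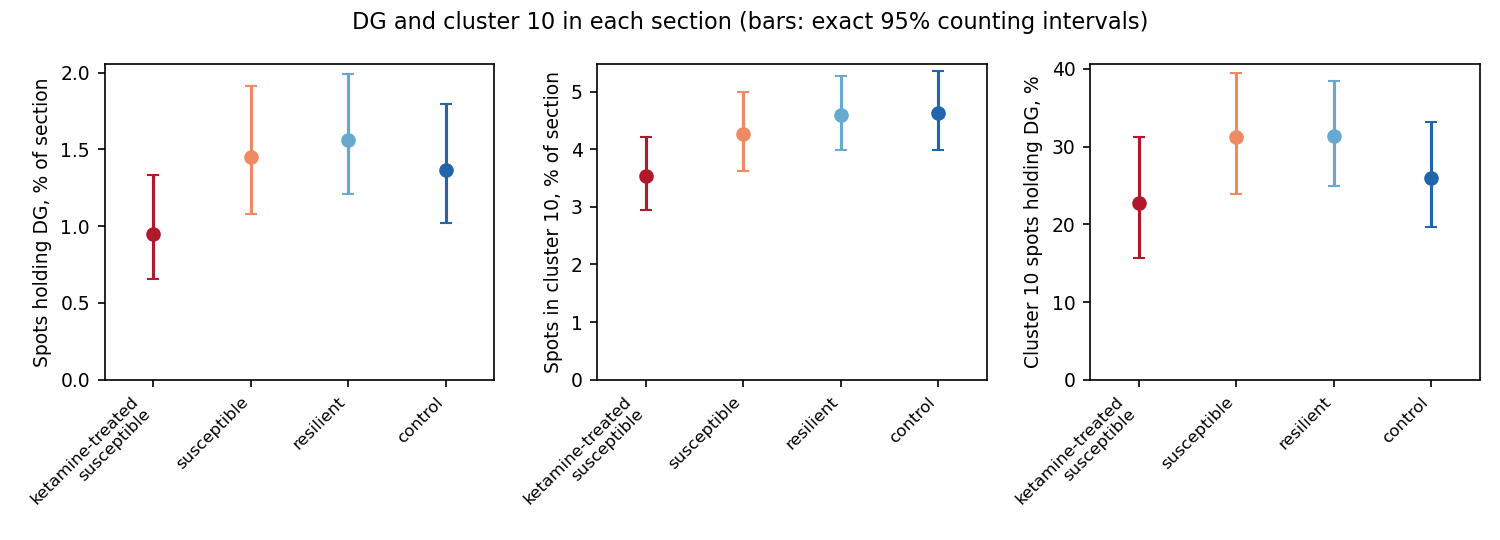
The panels plot the percent of spots holding DG, the percent of spots in cluster 10, and the percent of cluster 10 spots holding DG for each section, with exact 95% counting intervals as bars. The ketamine-treated section is lowest in all 3 panels, at 0.949%, 3.54% and 22.8%, and intervals overlap between sections.

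The difference in the ketamine-treated section became smaller when DG was taken as a part of the hippocampal types. These were DG and the CA types, without the subicular types. DG is part of its own denominator here, which draws the ratios towards 1. As a part of the summed share of DG and the CA types, DG made up 36.3% in the ketamine-treated, 40.2% in the susceptible, 39.2% in the resilient and 35.2% in the control section. On this scale the ketamine-treated section had 0.903 times the susceptible, 0.926 times the resilient and 1.03 times the control value. CA3, the pyramidal field that receives the mossy fibres, was also lower in the ketamine-treated section. It was at 0.547 times the susceptible, 0.435 times the resilient and 0.506 times the control share. CA1, the output field of the hippocampus proper, was at 0.885, 0.936 and 0.649 times these shares in the same order. CA2_IG_FC, the label for CA2 and related fields, was at 0.622, 0.586 and 1.10 times. CA3 and CA2_IG_FC had mean shares under 0.5% in every section. In the ketamine-treated section they were in only 15 and 17 spots. How much hippocampus each section happened to contain was not tested.

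The shared barcodes bear on the same comparison. Within the 3304 barcodes present in both sections, the mean DG share was 0.733% in the ketamine-treated section, against 1.06% in the susceptible one. The ratio of 0.693 was short of 1.5-fold. DG was held by 20 of these barcodes in both sections, by 13 in the ketamine-treated section alone and by 26 in the susceptible section alone. Of the 13, 10 lay in cluster 10 of the susceptible section, and of the 26, 5 lay in cluster 10 of the ketamine-treated section. Without the 20 barcodes, 13 spots (0.376%, 0.2004 to 0.642) were left in the ketamine-treated section and 30 spots (0.876%, 0.592 to 1.25) in the susceptible one, and the ratio of mean shares was 0.457. These spots were left out by their DG value, and taking the same number from both sections moves the ratio of spot counts away from 1 by construction, so nothing is read from that shift. Pure spots, defined below, were then 46.2% and 33.3% of DG spots, and astrocytes were in 38.5% and 50% of them, ketamine-treated section first.

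Nearly all DG lay in 1 of the 17 deposited clusters. Cluster 10 held 28 of 33 DG spots in the ketamine-treated, 46 of 50 in the susceptible, 60 of 65 in the resilient and 45 of 51 in the control section. By summed share, 93.5%, 96.3%, 96.9% and 95.7% of all DG was in this cluster in the same order. CA1, CA3 and CA2_IG_FC, a type named for CA2, the indusium griseum and the fasciola cinerea, were also mostly there, with 171 of 239, 79 of 118 and 70 of 82 of their spots. DG thus shared its cluster with the other hippocampal principal types.

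Cluster 10 made up 3.54% of ketamine-treated spots (2.95 to 4.21), 4.27% of susceptible spots (3.62 to 5.00), 4.60% of resilient spots (3.98 to 5.28) and 4.63% of control spots (3.98 to 5.36). Within it, DG was held by 22.8% of ketamine-treated spots (15.7 to 31.2), 31.3% of susceptible spots (23.9 to 39.5), 31.4% of resilient spots (24.9 to 38.5) and 26.0% of control spots (19.6 to 33.2). Both parts were lowest in the ketamine-treated section. The intervals overlapped between all sections in each.

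The 20 DG spots outside cluster 10 were different in content. They were spread over 6 clusters, with 8 in cluster 9, 6 in cluster 12 and 6 in the remaining 4. None was given wholly to DG, against 90 of the 179 DG spots in cluster 10. Their DG share ranged from 17.2% to 56.5% with a median of 28.1%, and DG was the leading type in 2 of them. Inside cluster 10 the lowest share was 21.7%, the median was 100% and DG led 154 of 179 spots. Astrocytes were in 15 of the 20 outlying spots, vascular types in 10 and oligodendrocytes in 6, against 65, 6 and 3 of the 179 spots in cluster 10.

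DG tended to fill the spots that held it. Its share was 100% in 16 of 33 spots in the ketamine-treated section (48.5%, 30.8 to 66.5), 22 of 50 in the susceptible (44.0%, 29.99 to 58.7), 26 of 65 in the resilient (40%, 28.04 to 52.9) and 26 of 51 in the control section (51.0%, 36.6 to 65.2). These spots with no other kept type are called pure below, and they supplied 66.1%, 58.9%, 56.8% and 68.2% of the summed DG share in the same order. A pure spot may still contain other types below the smallest share kept. The intervals of every pair of sections overlapped.

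The lowest DG share was 24.2% in the ketamine-treated, 18.5% in the susceptible, 19.0% in the resilient and 17.2% in the control section. All spots not counted were listed at 0. The median share over DG spots was 85.3%, 78.2%, 71.7% and 100% in the same order. Over all sections, 3 spots had less than 20% DG, 34 had 20 to 40%, 37 had 40 to 60%, 26 had 60 to 80%, and 9 had more without being pure. The highest share in a mixed spot was 85.9%. With no kept share under 10.1%, a mixed spot could not hold much more DG than that, and the gap up to the pure spots at 100% is largely set by this minimum.

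**Figure D2:**
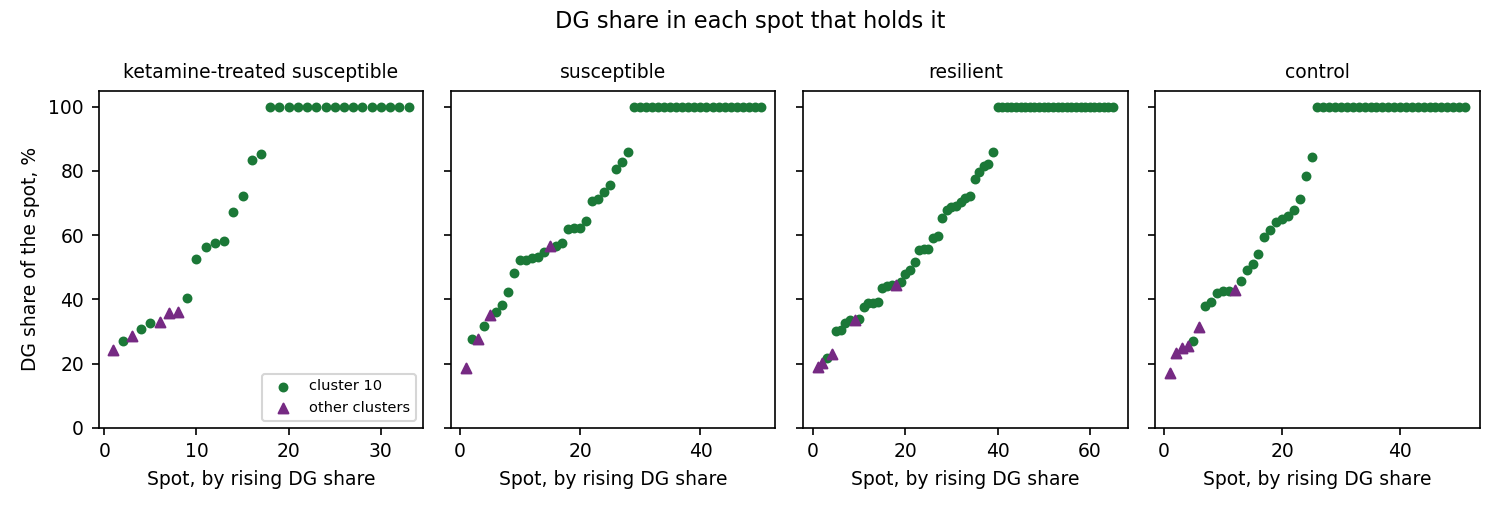
Each point is 1 spot holding DG, placed by rising DG share (vertical axis, percent of the spot) within its section, with cluster 10 spots as circles and spots of other clusters as triangles. Pure spots form the row at 100% in every section, all of them in cluster 10, and the triangles lie between 17.2% and 56.5%.

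DG led most of the spots it was in, which means that no other type had a higher share there. It led 25 of 33 DG spots in the ketamine-treated (75.8%, 57.7 to 88.9), 43 of 50 in the susceptible (86.0%, 73.3 to 94.2), 47 of 65 in the resilient (72.3%, 59.8 to 82.7) and 41 of 51 in the control section (80.4%, 66.9 to 90.2). Of the 43 spots that DG did not lead, astrocytes led 32. Oligodendrocytes and VLMC, the fibroblast-like cells of the meninges and vessel walls, led 3 each and CA3 led 2.

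Among the 35 types with at least 20 spots in every section, DG had the highest pure share over all sections together, at 45.2% (90 of 199 spots). It ranked 1 in the ketamine-treated, susceptible and resilient sections and 2 in the control section, where L2_3_IT_ENTl, a lateral entorhinal type, stood at 52.0% against 51.0% for DG. CA1 was at 23.8% over all sections and oligodendrocytes were at 13.8%. No type had a higher median share than DG in any of the 4 sections, and L2_3_IT_ENTl equalled it at 100% in the control section. CA3 and CA2_IG_FC had too few spots in some sections to be ranked. These ranks are a description, with no test.

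**Figure D3:**
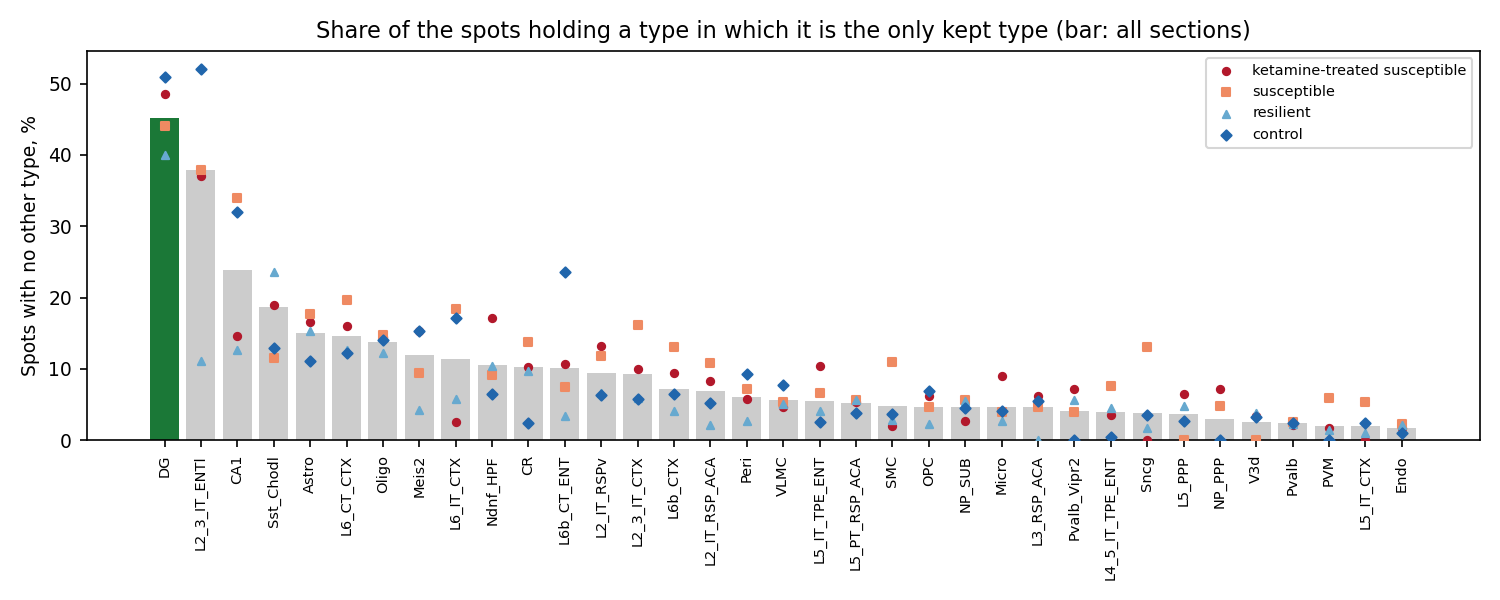
For each of 35 cell types, the bar gives the percent of its spots in which it was the only kept type over all sections, and the markers give the 4 sections. DG has the highest bar at 45.2%, and only in the control section is another type above it.

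CA1 spots were taken as the comparison. CA1 neurons also form a dense layer and were mostly in the same cluster. CA3 and CA2_IG_FC were mostly in that cluster too, but had too few spots in some sections to be ranked. Pure spots were more frequent for DG than for CA1 in 4 of 4 sections, at 48.5%, 44.0%, 40.6% and 51.0% of DG spots against 14.6%, 34.0%, 12.9% and 32.0% of CA1 spots, in the order ketamine-treated, susceptible, resilient and control. The mean was 46.02% ± 4.61 for DG and 23.4% ± 11.2 for CA1 (SD, n = 4 sections), a difference of 22.7 percentage points. A two-sided exact sign-flip permutation test over the 4 sections gave p = 0.125, the smallest it can give, and adjusted p = 0.236 over the 17 contrasts run. The design therefore cannot pass a threshold of 0.05 for any such contrast. Spots holding both types were left out.

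Of the 109 mixed DG spots, 67 held 1 other type, 36 held a pair of others and 6 held more. DG spots held 1.80 kept types on average, against 2.26 over all spots with a type. Of the other 66 types in the tables, 25 occurred in at least 1 DG spot: all 5 glial, all 4 vascular, 5 of 11 GABAergic and 11 of 46 glutamatergic types. Any glial type was in 42.7% of DG spots (35.7 to 49.9), against 67.3% of the other cluster 10 spots and 62.7% of all other spots. In CA1 spots without DG the figure was 44.1% (37.7 to 50.7), close to that of DG. The sets were split by the DG value, and pure DG spots can hold no glia. The lower figure than in the other cluster 10 spots or in all other spots is therefore not read as a trait of DG. Glia were the most frequent company of DG in its mixed spots.

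Astrocytes, the glia that support synapses and take up transmitter, were the most frequent partner. They were in 13 of 33 DG spots in the ketamine-treated (39.4%), 19 of 50 in the susceptible (38.0%), 29 of 65 in the resilient (44.6%) and 19 of 51 in the control section (37.3%). In all other spots they were at 45.6%, 41.8%, 43.7% and 47.6% in the same order, above the DG spots in 3 of 4 sections and below them in the resilient section. In mixed DG spots the figures were 76.5%, 67.9%, 74.4% and 76.0%. Of the 80 spots holding both, 43 held nothing else, and there the median DG share was 56.7%. Over the 80 spots DG exceeded astrocytes in 45. No section stood apart in either measure.

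Averaged over mixed spots of equal weight, astrocytes took 56.8% ± 2.57 of what DG left free and 32.9% ± 6.56 of what CA1 left free in its own spots (SD, n = 4 sections). The difference was 23.98 percentage points, with DG higher in 4 of 4 sections and p = 0.125 in the two-sided exact sign-flip permutation test (adjusted p = 0.236). By summed share instead, astrocytes took 58.5%, 57.5%, 65.7% and 54.4% of the DG remainder in the ketamine-treated, susceptible, resilient and control sections. By the plain share of spots holding astrocytes, DG and CA1 differed by 3.92 points, with DG higher in 3 of 4 sections (exact p = 0.375, adjusted p = 0.531). Against the other cluster 10 spots astrocytes were less frequent in DG spots in 4 of 4 sections, at 39.8% ± 3.32 against 65.3% ± 6.84 (SD, n = 4 sections), a difference of -25.5 points (exact p = 0.125, adjusted p = 0.236). These sets were split by the DG value, and the shares of a spot sum to 1. Pure DG spots can hold no partner, so the split itself favours lower partner values in DG spots. The same holds for every partner set against cluster 10 spots without DG or all other spots. The direction of those contrasts is therefore not read as a trait of DG. Cortical and entorhinal types were in 3.03%, 10.0%, 7.81% and 7.84% of DG spots against 45.8%, 24.5%, 48.4% and 29.3% of CA1 spots without DG, a contrast that was not tested.

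Oligodendrocytes, the cells that form myelin, were rare partners of DG. They were in 1 of 33 DG spots in the ketamine-treated, 2 of 50 in the susceptible, 2 of 65 in the resilient and 4 of 51 in the control section. Over all sections this was 4.52% of DG spots (2.09 to 8.41), against 31.4% of all other spots (30.6 to 32.2). In those other spots they were at 24.4%, 26.0%, 31.6% and 42.7% in the 4 sections, ketamine-treated first and control last. Of these 9 spots 3 were in cluster 10. Oligodendrocytes were less frequent in DG spots than in CA1 spots in 4 of 4 sections, with a mean difference of -6.51 points (exact sign-flip p = 0.125, adjusted p = 0.236). They were also less frequent than in the cluster 10 spots without DG in 4 of 4 sections, with a mean difference of -4.82 points (exact p = 0.125, adjusted p = 0.236). As a part of the remainder of mixed spots, oligodendrocytes took 4.74% for DG and 9.82% for CA1, but DG was higher in 2 of 4 sections and lower in 2 (exact p = 0.5, adjusted p = 0.607). The part that pure spots play in the contrasts by share of spots was not tested.

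The remaining glia were sparser still. Microglia, the resident immune cells, were in 2 DG spots, perivascular macrophages (PVM) in 2 and oligodendrocyte precursors (OPC) in 1. The control section had none of the 3 types in its 51 DG spots, which allows a share of up to 5.88% by a limit of 3 spots. Together they were in 3.03%, 4%, 3.08% and 0% of DG spots against 11.6%, 5.94%, 13.7% and 11.7% of the other cluster 10 spots, lower in 4 of 4 sections with a mean difference of -8.22 points (exact p = 0.125, adjusted p = 0.236). Against CA1 spots the direction was divided, with DG higher in 2 sections and lower in 2 (exact p = 0.5, adjusted p = 0.607).

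Vascular types were in 16 DG spots, 10 of them outside cluster 10. VLMC was in 8 spots, endothelial cells (Endo), which line the vessels, in 6, pericytes (Peri), which wrap capillaries, in 2 and smooth muscle cells (SMC) in 1. By section, vascular types were in 9.09%, 6%, 6.15% and 11.8% of DG spots, against 8.77%, 7.46%, 8.70% and 7.47% of all other spots. Over all sections this was 8.04% of DG spots, 8.12% of all other spots and 2.94% of CA1 spots without DG (7 of 238). VLMC was in 4.02% of DG spots (1.75 to 7.77), in 0 of 238 CA1 spots without DG and in 3.24% of all other spots. Of the 8 DG spots with VLMC, 6 lay outside cluster 10. Vascular types were more frequent in DG spots than in CA1 spots in 3 of 4 sections, by 5.34 points on average (exact p = 0.25, adjusted p = 0.386). They took 8.41% ± 5.03 of the remainder of mixed DG spots against 1.67% ± 1.19 for CA1, higher in 4 of 4 sections (exact p = 0.125, adjusted p = 0.236). Between all DG spots and the cluster 10 spots without DG the difference in the share of spots was -0.31 points (exact sign-flip p = 0.875, adjusted p = 0.875). This DG set takes in the DG spots outside cluster 10. Inside cluster 10, vascular types were in 6 of 179 DG spots, against 38 of 455 spots without DG (8.35%). The contrasts with CA1 also take in the DG spots outside cluster 10, and they were not run for cluster 10 DG spots alone.

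**Figure D4:**
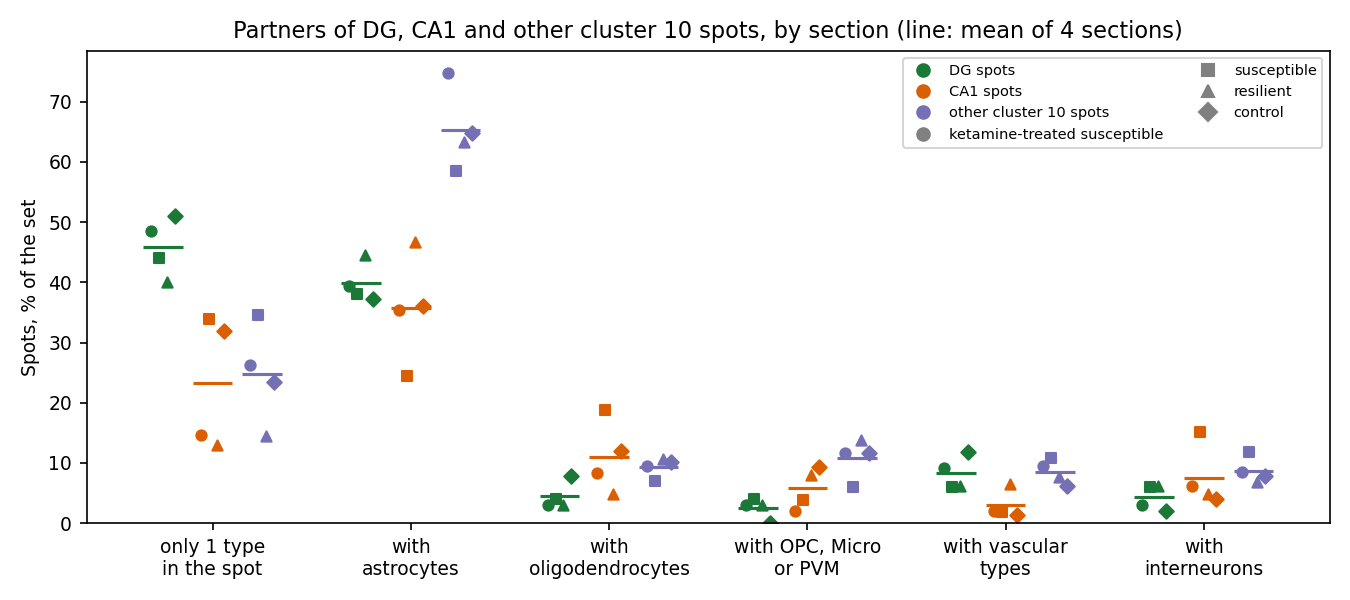
For DG spots, CA1 spots without DG and cluster 10 spots without DG, each marker gives 1 section's percent of spots that held a single type or held the named partners, and the lines give the means over 4 sections. DG spots were pure more often than both other sets in every section, and held oligodendrocytes less often.

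GABAergic types, grouped here under the name interneurons, were in 9 of 199 DG spots. The group takes in every GABAergic type of the tables, among them Meis2 and the long-range type Sst_Chodl. The named types were Sncg in 3 spots, Lamp5_Lhx6 and Meis2 in 2 each, and Pvalb and Pax6 in 1 each. By section interneurons were in 3.03%, 6%, 6.15% and 1.96% of DG spots, against 20.5%, 23.1%, 25.4% and 21.1% of all other spots. Pvalb, a fast-spiking type listed apart from the chandelier-type Pvalb_Vipr2, was in 0.503% of DG spots (0.0127 to 2.77) and in 9.21% of all other spots (8.74 to 9.69). Interneurons were less frequent than in other cluster 10 spots in 4 of 4 sections, with a mean difference of -4.46 points (exact p = 0.125, adjusted p = 0.236). Against CA1 spots they were lower in 3 of 4 sections (exact p = 0.25, adjusted p = 0.386).

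Ndnf_HPF, an interneuron type named for the hippocampal formation, was in 400 spots of the series and in 0 DG spots, which allows up to 1.51% of DG spots by a limit of 3 spots. None of its 400 spots was in cluster 10. Cajal-Retzius neurons (CR), which persist along the dentate molecular layer in rodents, were in 664 spots and shared 1 with DG, and 8 of the 664 were in cluster 10.

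Among the principal neurons, DG overlapped unequally with its hippocampal neighbours. CA2_IG_FC was in 13 DG spots, with 5 in the ketamine-treated, 3 in the susceptible, 4 in the resilient and 1 in the control section. That was 6.53% of DG spots and 15.9% of CA2_IG_FC spots. DG had the higher share in all 13, with a median of 81.5% against 17.97% for CA2_IG_FC. CA2_IG_FC was thus a minor part of spots that were mostly DG.

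CA3 was in 9 DG spots, with 1 in the ketamine-treated, 1 in the susceptible, 4 in the resilient and 3 in the control section. That was 4.52% of DG spots and 7.63% of CA3 spots, and the shares were closer, at a median of 54.7% for DG and 32.15% for CA3. CA1 was in 1 DG spot, a resilient one, which is 0.503% of DG spots (0.0127 to 2.77) and 0.418% of CA1 spots (0.0106 to 2.31). Subicular types, which relay hippocampal output, were in 0 of 199 DG spots, with the same limit of 1.51%. Of the other glutamatergic types only L2_IT_RSP_ACA, a layer 2 type of retrosplenial and cingulate cortex, was in 3 or more DG spots of a section. It was in 1, 3, 2 and 0 of them in the 4 sections, and 8 further glutamatergic types, CA1 and CR among them, were in 1 to 3 DG spots each over the series.

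The authors' t-SNE embedding, a map in which spots with like profiles are drawn near each other, gave a second view of how uniform DG spots were. Of the 10 nearest spots of the same section, 74.2% held DG in the ketamine-treated, 84.6% in the susceptible, 78.9% in the resilient and 78.2% in the control section. DG spots made up 0.949% to 1.56% of the spots that could have been neighbours. For pure spots the figures were 93.1%, 99.1%, 100% and 99.2%, and for mixed spots 56.5%, 73.2%, 64.9% and 56.4%. For the DG spots outside cluster 10 they were 4%, 0%, 12% and 5%.

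Few neighbours of CA1 spots on this map held DG, at 0.417%, 3.21%, 3.06% and 0% in the same order. DG was held by 0.949%, 1.45%, 1.56% and 1.37% of all spots in these sections. Its share among CA1 neighbours was thus above that level in the susceptible and resilient sections and below it in the others. CA1 was held by 48.75%, 50.2%, 63.7% and 53.9% of the same neighbours. When the neighbours of DG spots could come from any section, 79.7%, 87.2%, 76.9% and 80% of them held DG. Of these DG neighbours 80.2%, 51.8%, 53.6% and 70.3% belonged to another section. DG spots of every section thus had DG spots of other sections near them. The shares and the embedding were made from the same spots, and the input of the embedding is not given in the sources used here, so this is no independent check of the label.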

How the data were processed

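Spot tables of 4 sections were used as deposited. The values are fractions of a spot per cell type, assigned by the authors, and each spot sums to 1 per the file headers and values. The method that assigned them is not given in the sources used here. Cluster numbers are the authors', from a method not given. The deposited t-SNE coordinates are embedding scores with no unit, and only the order of distances was used. They were joined on spot barcodes, and each section's barcodes matched 1 barcode suffix exactly.

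Percentages, ratios and exact 95% Clopper-Pearson intervals were computed with Python 3.11.15, pandas 2.3.3 and SciPy 1.17.1. Spots are not replicates, so sections were compared without a test. Spot sets were compared within sections by a two-sided exact sign-flip permutation test over 4 sections, with Benjamini-Hochberg adjustment over 17 contrasts (12 of shares of spots and 5 of the remainder of mixed spots). A pure spot had a DG share within 1e-06 of 1. Remainder values in the contrasts were means over mixed spots, each given equal weight. Partner types named were all non-neuronal and GABAergic types in at least 1 DG spot and glutamatergic types in at least 3 DG spots of a section. CA1, CR and the hippocampal types absent from DG spots were named for comparison. The calculations were tested on simulated data. The type and the lists were chosen with earlier results of these data known.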

Additional observations from a re-analysis of the deposited data

How the results depend on the processing

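With equal weights for the 13 clusters that had at least 20 spots in every section, the ketamine-treated section had 0.745 times the susceptible and 0.802 times the resilient DG share. Within cluster 10 these ratios were 0.752 and 0.791, so neither passed 1.5-fold under those settings or as a part of the hippocampal types. Against the control, the ketamine-treated ratio passed it by spots led (0.655) and as a part of glutamatergic types (0.586). The susceptible to resilient ratio lay between 0.929 and 1.10 and crossed 1 under several settings. As a part of cluster 10, DG was in 22.8%, 31.3%, 31.4% and 26.0% of spots in the ketamine-treated, susceptible, resilient and control sections, a different denominator. At a minimum of 0.5 of the spot, 0.690% of ketamine-treated, 1.19% of susceptible, 1.06% of resilient and 0.991% of control spots held DG, so the susceptible section was highest, as it was by spots led (1.25%, against 1.13% for the resilient). Leaving out the 20 barcodes that held DG in both sections, a setting chosen after seeing the data, gave 0.376% (ketamine-treated) and 0.876% (susceptible), which are lower by construction. Astrocytes were in 76.5%, 67.9%, 74.4% and 76.0% of mixed spots in the ketamine-treated, susceptible, resilient and control sections. They took 53.6%, 56.7%, 59.8% and 57.2% of the remainder in the same order. The vascular contrast of all DG spots with the cluster 10 spots without DG was -0.31 points on average. It ranged from -2.25 to 1.22 when a section was left out. It was above 0 without the susceptible (1.22) or the resilient (0.080) section. With 20 neighbours the ketamine-treated embedding value was 66.5%, and with any section 79.7%. The cause of the other shifts was not tested. The remainder could not be computed for cluster 10 spots without DG, which have no single type to subtract. No paired analysis was possible because each group had 1 section and no replicate numbers to pair; the contrasts over 4 sections pair spot sets within a section. Depth was unknown, and 33 to 65 DG spots a section limit every share.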
